A study of Rattus norvegicus with 36 samples.

Results

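Lung was compared between irradiated and unirradiated rats 4 weeks after a single exposure of the chest to 15 Gy. These samples are 6 of the 36 small RNA libraries of the study, which also followed blood and earlier weeks. The members are the 3 lung libraries of 15 Gy at 4 weeks and the 3 lung libraries of 0 Gy at 4 weeks, chosen by their labels, and each was read through the 458 known rat miRNAs among the 947 miRNAs counted. All animals were female rats of the strain WAG/RijCmcr, 9 to 10 weeks old at irradiation, and none carried a transgene or received another agent. The irradiated rats received 15 Gy of X-rays (320 kVp, 1.43 Gy per min) to the whole thorax, and the control rats received 0 Gy and were of the same age at sampling. The study's methods place the whole lung, the heart and some of the liver in the field. RNA came from pieces of the right superior lobe. Each library was a pool of several rats, while the sample labels give 3 rats per group. A piece of lobe is a mixture of cell types, so fewer cells of a type and less RNA per cell cannot be told apart in any result below.

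miRNAs are small RNAs cut in pairs of arms (5p and 3p) from hairpin precursors. They lead the silencing complex to messenger RNAs that match their seed, the stretch of bases 2 to 8, so miRNAs with the same seed can bind the same sites. In lung, miR-126 is a miRNA of endothelium, the miR-200 family of epithelium, miR-34 and miR-449 of ciliated cells, miR-143 and miR-145 of smooth muscle and miR-142 and miR-223 of leukocytes. miR-146a and miR-146b are induced by NF-kB in inflamed tissue and act on adaptor proteins of the Toll-like receptor pathway. Radiation to the chest injures the lung over weeks, first as pneumonitis, an inflammation of the lung.

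The sequences below are those on which the results turn, each 5′ to 3′, from RefSeq (GRCr8), with the seed in capitals. The first pair are the members of an imprinted cluster with the clearest lower levels after 15 Gy. The next are the pair of miR-146 miRNAs that were higher, then members of the miR-183 cluster, the miR-99 and miR-100 seed family and the miR-25 and miR-92a seed family.
miR-127-3p: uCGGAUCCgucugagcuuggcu
miR-411-5p: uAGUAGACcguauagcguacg
miR-146a-5p: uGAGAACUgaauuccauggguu
miR-146b-5p: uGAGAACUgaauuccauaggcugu
miR-183-5p: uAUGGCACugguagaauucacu
miR-96-5p: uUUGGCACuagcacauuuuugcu
miR-100-5p: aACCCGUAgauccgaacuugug
miR-99b-5p: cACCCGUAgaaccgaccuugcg
miR-92a-3p: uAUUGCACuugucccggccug
miR-25-3p: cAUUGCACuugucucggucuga

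miR-146a-5p and miR-146b-5p shared the seed GAGAACU and were identical at 20 of 22 positions counted from the 5′ end. miR-92a-3p and miR-25-3p shared the seed AUUGCAC and were identical at 18 of 21 positions. Of the 458 known rat miRNAs, 413 were matched by name to a mature sequence, and 218 of the 242 that were tested.

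Total counts were 3807051, 2013989 and 1682183 in the 0 Gy libraries and 2353538, 883126 and 258078 in the 15 Gy libraries, so 1 count stood for 0.247 to 1.29 CPM (counts scaled to library size) at 0 Gy and for 0.476 to 3.97 CPM at 15 Gy. Known rat miRNAs took 39.4% to 44.6% of the counts. Replicate 3 of 0 Gy stood apart. Its scaling factor was 0.463, against 0.893 to 1.09 in the other libraries, and miR-143-3p took 45.3% of its counts of known miRNAs, against 15.0% to 24.5% in the others. Replicate 3 of 15 Gy was the shallowest. Of the 27 known miRNAs with an unadjusted p under 0.05, 9 kept it without replicate 3 of 0 Gy (7 higher and 2 lower), and 9 without replicate 3 of 15 Gy (7 higher and 2 lower). Of the known miRNAs, 406 had a count in at least 1 of the 6 libraries and 52 had none. The filter on low counts left 242 for the test, and no library of the comparison held more than 27 counts of any of the other 216. Levels below are CPM after scaling of the libraries (TMM), and differences are log2 fold changes of 15 Gy over 0 Gy with their standard error (SE).

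The libraries held the miRNAs of lung. The summed level was 8034 to 27791 CPM at 0 Gy and 10418 to 18144 CPM at 15 Gy for the endothelial miR-126 arms. It was 2338 to 5106 CPM and 3303 to 3886 CPM for the miR-200 family, and 1019 to 1627 CPM and 797 to 1100 CPM for the miR-34 and miR-449 family. The liver miRNA miR-122-5p and the heart miRNA miR-208a-5p had 0 counts in all 6 libraries, and miR-1-3p, of heart and skeletal muscle, had 0 to 14 counts. miR-499-5p, also listed for these muscles, was not tested, and the untested muscle miRNAs had at most 21 counts in a library. miR-133a-3p, of the same muscles, was present at 37.0, 52.0 and 38.6 CPM at 0 Gy and at 15.7, 48.8 and 11.9 CPM at 15 Gy, and its log2 fold change was −0.70 (SE 0.61).

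The comparison asked which miRNAs of the lung differed 4 weeks after irradiation. At the adjusted threshold of 0.05 no miRNA passed edgeR's quasi-likelihood test over all 499 rows tested (0%). Without adjustment, 20 rows were higher (4.01%) and 28 lower (5.61%). Among the 242 known rat miRNAs, 13 were higher (5.37%) and 14 lower (5.79%) at an unadjusted p under 0.05. The miRNAs named below for an unadjusted p under 0.05 did not pass the adjusted threshold in this fit. The lower level of miR-127-3p had an adjusted p of 0.0759, and every other miRNA named below had an adjusted p of at least 0.453. A pair of other fits made calls. With known rat miRNAs fitted alone, edgeR called 1 of 242 (0.413%), miR-127-3p. DESeq2 called 11 of 499 rows (2.2%), 7 higher and 4 lower. Of these, 5 were known rat miRNAs (2.07%), namely miR-146a-5p, miR-146b-5p, miR-183-5p and miR-3553 higher and miR-127-3p lower. miR-183-5p and miR-3553 mirror each other in sequence and count, as described below. DESeq2 gave no adjusted p for some of the rows, such as let-7f-1-3p and miR-411-5p, so these could not be called. The median log2 fold change was −0.18 over all rows and −0.11 over known miRNAs, and 39.7% of all rows and 43.4% of the known miRNAs lay above 0.

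miR-146a-5p and miR-146b-5p, the NF-kB responsive pair, were both higher after 15 Gy, and miR-146b-5p was the most abundant of the 13 higher known miRNAs. miR-146b-5p stood at 10934, 8957 and 16254 CPM at 0 Gy and at 34015, 20400 and 28280 CPM at 15 Gy. Every irradiated library lay above every control library, and the log2 fold change was 1.19 (SE 0.33), a 2.29-fold level. It passed DESeq2 (adjusted p 0.00622), but not edgeR over all rows (adjusted p 0.453) or over known miRNAs alone (adjusted p 0.119). miR-146a-5p stood at 1366, 765 and 717 CPM at 0 Gy and at 2010, 2584 and 3399 CPM at 15 Gy. Its groups did not overlap either, and the log2 fold change was 1.49 (SE 0.47), a 2.8-fold level. It passed DESeq2 as well (adjusted p 0.0329), and not edgeR over known miRNAs alone (adjusted p 0.0979). With any 1 of the 6 libraries left out, the log2 fold change stayed between 1.01 and 1.56 for miR-146b-5p and between 1.35 and 1.90 for miR-146a-5p.

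**Figure D1:**
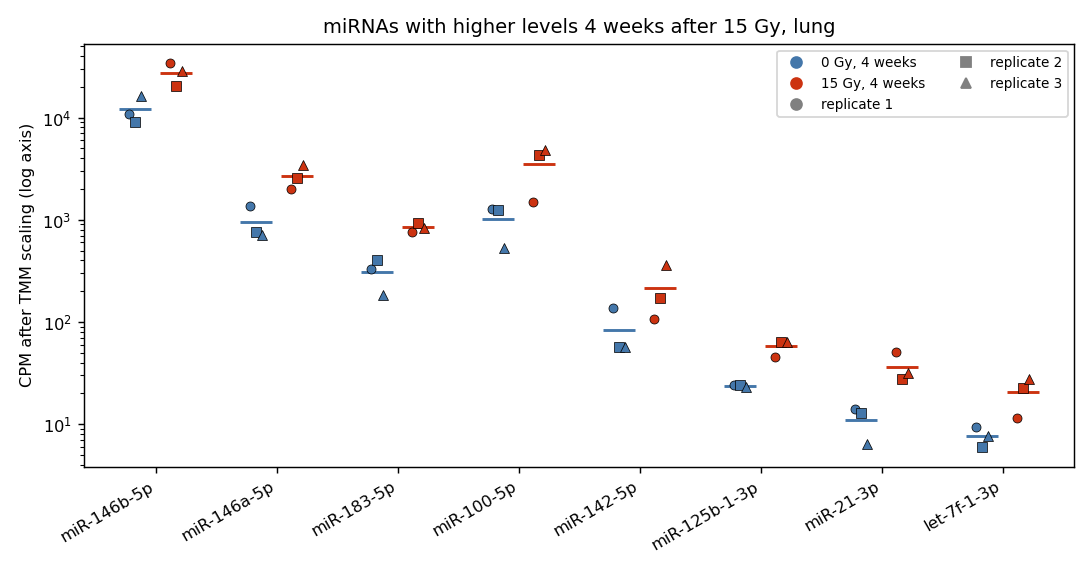
Levels in CPM after TMM scaling (log axis) of 8 miRNAs with a higher level, in the 3 libraries of 0 Gy (blue) and of 15 Gy (red) at 4 weeks. Symbols give the replicate and horizontal lines the group mean, and the groups are apart for all but miR-142-5p, where replicate 1 of 15 Gy (107 CPM) lies below replicate 1 of 0 Gy (137 CPM).

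Of the 9 listed miRNAs of inflammation and injury, 5 were tested. All 5 had a log2 fold change above 0, against 39.7% of all rows, with a median of 1.19 against −0.18. An unadjusted p under 0.05 was found for 3, against 4.01% of all rows in that direction. The list was chosen with earlier results of these data known, so these shares describe it and are not a test. The 5 are not independent either, since they hold the miR-146 pair and both arms of miR-21. The miRNAs not tested were both arms of miR-212, miR-132-5p and miR-147, with at most 8 counts. miR-21 is induced in injured and fibrotic tissue. Its less abundant arm miR-21-3p was at 14.1, 12.8 and 6.43 CPM at 0 Gy and at 50.9, 27.4 and 31.7 CPM at 15 Gy, with a log2 fold change of 1.70 (SE 0.66) and no overlap. The main arm miR-21-5p was at 1115, 1037 and 1501 CPM and at 2736, 1314 and 1939 CPM. Its groups overlapped, and its log2 fold change was 0.71 (SE 0.44). miR-132-3p, which responds to CREB and to inflammatory signals, was at 3.86 to 4.69 CPM and at 5.96 to 11.9 CPM, with a log2 fold change of 0.88 (SE 0.56).

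Markers of blood cells were measured in the same libraries. Of the leukocyte and myeloid miRNAs, 3 of 5 were tested, all 3 above 0 (median 0.46), and their summed level was 128 to 294 CPM at 0 Gy and 220 to 504 CPM at 15 Gy. Scaled by miR-191a-5p their median lay below 0. miR-142-5p, an arm of the miRNA of blood lineages, was at 137, 56.5 and 56.6 CPM at 0 Gy and at 107, 172 and 361 CPM at 15 Gy. The highest value was in the shallowest library and the groups overlapped. Its log2 fold change was 1.34 (SE 0.51), and 0.85 without that library. For the other arm, miR-142-3p, the log2 fold change was 0.46 (SE 0.53). miR-223-3p of myeloid cells had 0.25 (SE 0.49), with 30.9 to 112 CPM at 0 Gy and 62.8 to 92.9 CPM at 15 Gy. Of the 4 listed lymphocyte miRNAs 3 were tested, with 2 above 0 and 1 below (median 0.18). miR-150-5p was at 1099, 952 and 1530 CPM and at 581, 1286 and 924 CPM, with a log2 fold change of −0.36 (SE 0.47). miR-342-3p was at 65.9, 70.7 and 104 CPM and at 84.7, 142 and 139 CPM, with 0.60 (SE 0.56). For miR-150-3p the log2 fold change was 0.18 (SE 0.68). Among the 5 listed red cell miRNAs 4 were tested, with 3 above 0 and 1, miR-486-5p, below at −1.07 (median 0.46). Without replicate 3 of 0 Gy all 4 lay above 0. The log2 fold change was 0.70 (SE 0.73) for miR-144-3p and 0.40 (SE 0.67) for miR-144-5p. miR-451-5p was at 46.0 to 83.1 CPM and at 79.9 to 99.1 CPM, with 0.52 (SE 0.79). miR-486-5p, which the file places among homologs of other species, took 0.712% to 4.24% of the counts at 0 Gy and 1.37% to 2.64% at 15 Gy. The part that blood cells in the tissue had in the higher level of miR-146 was not tested.

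The miR-183 cluster is expressed in sensory cells and in epithelium. Of its 4 listed members 3 were tested, and their log2 fold changes did not share a sign. miR-183-5p was at 327, 406 and 183 CPM at 0 Gy and at 762, 939 and 829 CPM at 15 Gy. The groups were apart, and the log2 fold change of 1.47 (SE 0.43), a 2.76-fold level, passed DESeq2 (adjusted p 0.0423) and not edgeR over all rows (adjusted p 0.453). miR-96-5p was at 26.6, 18.2 and 10.3 CPM and at 15.2, 54.8 and 83.3 CPM. Replicate 1 of 15 Gy lay among the controls, and the log2 fold change was 1.40 (SE 0.62). miR-182, the most abundant of the 3, was at 2452, 2843 and 12492 CPM and at 5073, 3317 and 3093 CPM. Its high control value is that of the library that stood apart, and its log2 fold change was −0.63 (SE 0.55). Without that library all 3 lay above 0, with a median of 1.26.

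Some entries mirror others in sequence and in count. miR-3553 had nearly the counts of miR-183-5p, 0.852 to 1.005 times as many in each of the 6 libraries, and its sequence is the reverse complement of miR-183-5p over 22 bases. Whether the same reads were counted for both was not tested, since the table holds no reads and the strand setting is not given in the sources used here. The sequences are shown for 3 pairs with an unadjusted p under 0.05, with the seed in capitals; reading the second line of a pair backwards and exchanging A with U and G with C gives the first over the paired bases.
miR-183-5p: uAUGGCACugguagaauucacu
miR-3553: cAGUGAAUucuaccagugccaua
miR-501-3p: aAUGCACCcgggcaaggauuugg
miR-3560: cAAAUCCUugcccgggugcauu
miR-181a-1-3p: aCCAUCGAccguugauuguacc
miR-3570: gGUACAAUcaacggucgauggu

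Among the 218 tested known miRNAs matched to a sequence, 17 pairs had a reverse complement of at least 18 bases. Of these pairs, 4 had both entries at an unadjusted p under 0.05. The fourth is miR-378a-3p with miR-3557-5p, over 21 bases. Over the 17 pairs the counts were not always close, with 5.776 to 7.513 times as many for miR-3596a as for let-7a-5p. The 27 known miRNAs at that threshold are 23 when each pair counts once. miR-501-3p had 0.875 to 5.0 times the counts of miR-3560 in the libraries that held counts of both. miR-501-3p and miR-3560 were low, at 0 to 5.93 CPM and 0 to 3.65 CPM at 0 Gy. At 15 Gy they were at 4.76, 26.2 and 27.8 CPM and at 0.952, 17.9 and 31.7 CPM, so replicate 1 stayed within the range of the controls.

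**Figure D2:**
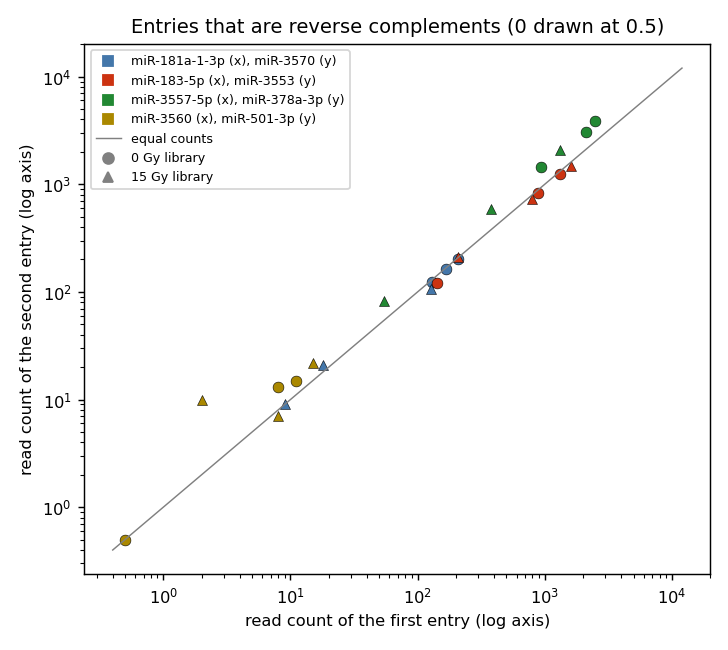
Read counts (log axes, 0 drawn at 0.5) of the 4 pairs of entries that are reverse complements and had an unadjusted p under 0.05, 1 point for each of the 6 libraries, circles for 0 Gy and triangles for 15 Gy. Points near the grey line have equal counts, as for miR-183-5p and miR-3553 (0.852 to 1.005 times), while miR-378a-3p had 1.464 to 1.578 times the counts of miR-3557-5p.

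The miR-99, miR-100 and miR-125 families, encoded in shared clusters with let-7 genes, held 10 listed miRNAs, all tested. Their log2 fold changes had a median of 0.87 against −0.18 over all rows, and 6 lay above 0, against 39.7% of all rows. The 4 below 0 were the 3p arms miR-99a-3p, miR-99b-3p, miR-125a-3p and miR-125b-2-3p, from −0.85 to −0.36. An unadjusted p under 0.05 was found for 3, all higher, against 4.01% of all rows. This list too was chosen with earlier results known, so its shares are not a test. Outside it, miR-351-5p has the seed CCCUGAG of miR-125a-5p and miR-125b-5p and went the other way, at −0.81 (SE 0.41). miR-100-5p was at 1262, 1245 and 533 CPM at 0 Gy and at 1496, 4318 and 4826 CPM at 15 Gy. The groups did not overlap, but replicate 1 of 15 Gy was close to the controls, and the log2 fold change was 1.81 (SE 0.77). miR-99a-5p had the same pattern, with 1031, 790 and 275 CPM and then 904, 2535 and 3133 CPM. Its groups overlapped, and its log2 fold change was 1.65 (SE 0.77). miR-99b-5p, with the seed ACCCGUA of miR-100-5p, was at 10280, 27246 and 14798 CPM and at 19982, 48220 and 44659 CPM, with a log2 fold change of 1.11 (SE 0.55). miR-125a-5p was at 8041, 8112 and 7296 CPM and at 5790, 19886 and 23109 CPM, with 1.06 (SE 0.52). The groups of both overlapped. In each of these 4 the level in replicate 1 of 15 Gy was the lowest of its group, and replicate 1 was also the deepest library of that group. With the log10 depth of the libraries as a covariate, the log2 fold change was 1.66 (SE 0.81) for miR-100-5p, which then missed an unadjusted p of 0.05, and 2.0 (SE 0.8) for miR-99a-5p, which kept it. It was 0.88 (SE 0.51) for miR-99b-5p and 0.82 (SE 0.51) for miR-125a-5p. Of the 27 known miRNAs, 18 kept an unadjusted p under 0.05 in that fit. The minor arm miR-125b-1-3p was the steadiest, at 24.4, 24.2 and 23.1 CPM and at 45.2, 64.3 and 63.5 CPM. Its groups were apart, and its log2 fold change was 1.26 (SE 0.42).

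miR-127-3p had the smallest p of all known miRNAs. It is encoded in the imprinted Dlk1-Dio3 domain, where the miRNAs are expressed from the maternal chromosome and form one of the largest miRNA clusters of mammals. It stood at 577, 991 and 780 CPM at 0 Gy and at 325, 311 and 155 CPM at 15 Gy, and every irradiated library lay below every control library. The log2 fold change was −1.57 (SE 0.33, 95% interval −2.22 to −0.92), a level of 0.337 times the control. It fell in DESeq2 (adjusted p 0.00204) and in edgeR over known miRNAs alone (adjusted p 0.0248), and over all rows the adjusted p was 0.0759. With any 1 of the 6 libraries left out it stayed between −1.75 and −1.12.

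The cluster holds 69 listed known miRNAs, of which only 5 were tested, since the others had at most 19 counts in a library. All 5 had a log2 fold change below 0, with a median of −1.24 (−1.18 without replicate 3 of 0 Gy) against −0.18 over all rows. An unadjusted p under 0.05 was found for 2, against 5.61% of all rows, and 3 had groups apart, against 7.01% of all rows. Since the list was chosen with earlier results of these data known, these shares describe it and are not a test. miR-411-5p was at 18.8, 21.0 and 29.6 CPM at 0 Gy and at 12.8, 2.38 and 3.97 CPM at 15 Gy, with a log2 fold change of −1.66 (SE 0.67). miR-434-3p was at 11.6, 18.7 and 10.3 CPM and at 5.71, 9.53 and 0 CPM, with −1.19 (SE 0.65). miR-136-3p was at 10.9, 3.65 and 7.71 CPM and at 3.33, 2.38 and 3.97 CPM, with −1.24 (SE 0.58). miR-541-5p was at 24.2, 26.9 and 10.3 CPM and at 17.6, 13.1 and 11.9 CPM, with −0.51 (SE 0.64). All of these except miR-127-3p rest on few counts in the shallow libraries. The 68 members other than miR-127-3p, summed whether tested or not, held 93.5, 109 and 96.4 CPM at 0 Gy and 51.9, 41.7 and 39.7 CPM at 15 Gy. The sums did not overlap, and those of 15 Gy came from 109, 35 and 10 counts.

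**Figure D3:**
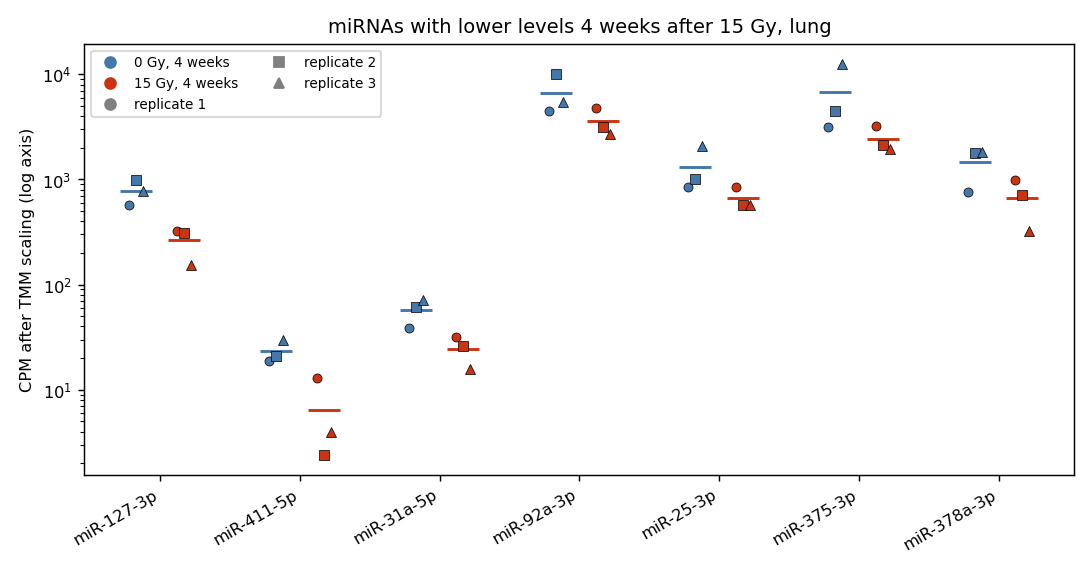
Levels in CPM after TMM scaling (log axis) of 7 miRNAs with a lower level, in the 3 libraries of 0 Gy (blue) and of 15 Gy (red) at 4 weeks, with the group mean as a horizontal line. The groups are apart for miR-127-3p, miR-411-5p and miR-31a-5p and overlap for the other 4, and the highest point of miR-375-3p (12670 CPM) is replicate 3 of 0 Gy.

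Other miRNAs with a lower level leaned more on the control library that stood apart. miR-375-3p, of neuroendocrine cells, was at 3169, 4460 and 12670 CPM at 0 Gy and at 3200, 2137 and 1967 CPM at 15 Gy. Its log2 fold change was −1.47 (SE 0.51), and −0.56 without replicate 3 of 0 Gy. The minor arms miR-181a-1-3p and miR-181a-2-3p were highest in the same library, the first at 166 CPM against 51.3 and 75.7 CPM in the other controls. At 15 Gy they were at 60.4, 21.4 and 35.7 CPM and at 25.2, 14.3 and 19.8 CPM. Their log2 fold changes were −1.29 (SE 0.55) and −1.68 (SE 0.64), and −0.59 (SE 0.56) and −0.71 (SE 0.61) without that library. Of the 4 miRNAs with the miR-181 seed ACAUUCA, all were below 0, from −0.86 to −0.41, and miR-181c-5p alone had an unadjusted p under 0.05. miR-1298 was low, at 7.40, 13.7 and 32.1 CPM and at 6.66, 4.76 and 0 CPM, and its log2 fold change of −1.83 (SE 0.65) was −1.02 (SE 0.63) without that library. miR-31a-5p was at 39.0, 61.1 and 70.7 CPM and at 31.4, 26.2 and 15.9 CPM. Here every irradiated library lay below every control library, and the log2 fold change was −1.17 (SE 0.52), or −0.89 (SE 0.61) without that library. miR-378a-3p, encoded within a gene of mitochondrial metabolism, was at 757, 1775 and 1842 CPM and at 986, 709 and 325 CPM, with −1.11 (SE 0.48), or −0.82 (SE 0.57) without that library. miR-30c-2-3p was at 58.0, 98.0 and 251 CPM and at 76.1, 41.7 and 51.6 CPM, with −1.25 (SE 0.58). Without that library it was at −0.38 (SE 0.55), and against 0 Gy at 1 week it turned to 0.65 (SE 0.61). Of the 14 lower known miRNAs, miR-127-3p and miR-92a-3p kept an unadjusted p under 0.05 without replicate 3 of 0 Gy.

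miR-92a-3p and miR-25-3p, which share a seed but come from different clusters, were both lower, while the 4 tested miRNAs of the seed did not share a sign. miR-92a-3p was at 4452, 10105 and 5498 CPM at 0 Gy and at 4792, 3178 and 2717 CPM at 15 Gy, with a log2 fold change of −0.91 (SE 0.35). Replicate 1 of 15 Gy lay above replicate 1 of 0 Gy. Without replicate 2 of 0 Gy, which held the highest value, it was −0.48. miR-25-3p was at 842, 1000 and 2093 CPM and at 852, 571 and 571 CPM, with −0.98 (SE 0.41). Again the highest value was in the control library that stood apart, and without it the log2 fold change was −0.38 (SE 0.41). The other tested miRNAs with this seed were miR-92b-3p, at −0.64 (SE 0.54), and miR-363-3p, which went the other way at 0.83 (SE 0.53). In the miR-17-92 cluster, known for growth and for B cell development, 5 of 9 members were tested and all 5 lay below 0 (median −0.68). Without replicate 3 of 0 Gy, 2 of the 5 lay above 0. In the miR-106b-25 cluster 5 of 6 lay below 0 (median −0.40).

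The let-7 family, a set of abundant miRNAs of differentiated cells, held 8 tested members, and all 8 lay below 0 (median −0.51). None had an unadjusted p under 0.05, and without replicate 3 of 0 Gy 7 of the 8 lay above 0 (median 0.03). Smooth muscle miR-143-3p was the most abundant known miRNA at 0 Gy, at 90018, 86581 and 386364 CPM, and was at 117847, 77693 and 66725 CPM at 15 Gy. Its log2 fold change was −1.10 (SE 0.53), and 0.09 without replicate 3 of 0 Gy. Of the 4 smooth muscle miRNAs, all tested, 3 lay below 0 and 1 above (median −0.42). The others were miR-143-5p at −0.15 (SE 0.52), miR-145-5p at −0.68 (SE 0.65) and miR-145-3p at 1.28 (SE 0.77). Among the 10 known miRNAs with the highest mean level, the groups overlapped for all but miR-146b-5p. miR-10a-5p had a mean of 70672 CPM (SD 36880, n = 3) at 0 Gy and of 77150 CPM (SD 12093, n = 3) at 15 Gy. miR-26a-5p had 16879 CPM (SD 7521, n = 3) and 18589 CPM (SD 3726, n = 3). miR-30a-5p had 27726 CPM (SD 14007, n = 3) and 19660 CPM (SD 1148, n = 3).

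The lists of endothelium, the miR-200 family, the miR-34 and miR-449 family and fibrosis held no member with an unadjusted p under 0.05. The endothelial miR-126 arms had log2 fold changes of −0.51 (SE 0.51) and −0.11 (SE 0.50), and the 8 arms of the miR-200 family ran from −0.32 to 0.55 (median −0.04). Of the 7 members of the miR-34 and miR-449 family, 2 lay above 0 (median −0.27). miR-34a-5p, a target of p53 after DNA damage, was at 79.0, 50.1 and 97.7 CPM at 0 Gy and at 103, 85.8 and 119 CPM at 15 Gy, with 0.44 (SE 0.31). The groups overlapped, and the 95% interval of the log2 fold change was −0.17 to 1.05. Of 9 miRNAs of miR-29, miR-199 and miR-214, which are tied to collagen and fibrosis, 6 were tested with a median of 0.16, which lay below 0 when scaled by miR-191a-5p. miR-210-3p, which responds to hypoxia, was at 13.1, 18.7 and 23.1 CPM and at 10.5, 8.34 and 11.9 CPM. Its groups were apart, with a log2 fold change of −0.84 (SE 0.43), but the levels at 15 Gy came from only 22, 7 and 3 counts. Over all known miRNAs, 13 had groups apart upwards (5.37%) and 18 downwards (7.44%), against 4.81% and 7.01% of all rows.

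Directions depend on the scaling of the libraries. miR-191a-5p, which is often taken as a reference, itself lay at 0.75, and scaling by it moved the median of all rows from −0.18 to −0.90. All 63 known miRNAs with an unadjusted p under 0.05 were then lower, and none was higher. Relative to the median of all rows, the inflammation list stood at 1.37 under TMM and 1.26 under miR-191a-5p scaling. The miR-99, miR-100 and miR-125 list stood at 1.05 and 0.93, and the imprinted cluster at −1.06 and −0.99. All 27 known miRNAs with an unadjusted p under 0.05 kept their sign under this scaling, under size factors and under library totals. Fewer kept that p. It was kept by 14 under miR-191a-5p scaling, all lower, and by 25 under size factors. Library totals left 13 of the 27, with 8 higher and 5 lower.

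Arms from the same hairpin did not always differ together. Among 52 hairpins with both arms tested and matched to a sequence, 30 had arms of the same sign. let-7f-1-3p, at 9.38, 5.93 and 7.71 CPM at 0 Gy and at 11.4, 22.6 and 27.8 CPM at 15 Gy, showed a log2 fold change of 1.35 (SE 0.47), with groups apart. Its main arm let-7f-5p had −0.50 (SE 0.52), and 0.22 without replicate 3 of 0 Gy. let-7f-5p can come from more than 1 gene, and its reads cannot be assigned to 1 hairpin. The median GC content of the mature sequence was 47.8% over 218 tested miRNAs, 42.6% over the 12 matched ones with a higher level and 51.2% over the 14 with a lower level at an unadjusted p under 0.05. The part of base composition in the differences was not tested.

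The levels at 4 weeks were set beside those of the other weeks in lung. miR-127-3p had a mean of 877 CPM (SD 9.82, n = 3) at 1 week after 15 Gy, 667 CPM (SD 116, n = 3) at 2 weeks, 379 CPM (SD 93.7, n = 3) at 3 weeks and 263 CPM (SD 94.4, n = 3) at 4 weeks. At 0 Gy it was 586 CPM (SD 51.9, n = 3) at 1 week and 783 CPM (SD 207, n = 3) at 4 weeks. So its level was above the control of the same week at 1 week and below it at 4 weeks. miR-146b-5p had means of 12257, 14189, 14899 and 27565 CPM at 1 to 4 weeks after 15 Gy, and 9791 and 12048 CPM in the controls, so the level at 4 weeks was the highest of the 6 groups. miR-146a-5p had means of 797, 1584, 1395 and 2664 CPM after 15 Gy, and 1224 and 949 CPM in the controls. miR-142-5p had 33.8, 104, 126 and 213 CPM after 15 Gy, and 103 and 83.4 CPM in the controls. In replicate 3 of 15 Gy at 3 weeks, with 8132 counts in all, 1 count stood for 140 CPM. Its 279 CPM of miR-127-3p and 140 CPM of miR-142-5p therefore rest on very few counts. In replicate 3 of 0 Gy at 1 week, with 11621 counts, 1 count stood for 53.8 CPM. The means, SDs and fold changes that use these groups carry this limit. The comparisons of 3 and 4 weeks share their 0 Gy libraries. Against them, the log2 fold change at 3 weeks was −1.0 (SE 0.34) for miR-127-3p, 0.31 (SE 0.33) for miR-146b-5p, 0.58 (SE 0.46) for miR-146a-5p and 0.90 (SE 0.43) for miR-183-5p. With the younger controls, 0 Gy at 1 week, in their place, the level at 4 weeks gave −1.14 (SE 0.33) for miR-127-3p, 1.49 (SE 0.33) for miR-146b-5p and 1.1 (SE 0.46) for miR-146a-5p. For miR-375-3p it gave 0.09 (SE 0.50) and for miR-30c-2-3p 0.65 (SE 0.61), the pair among the 27 whose sign turned.

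**Figure D4:**
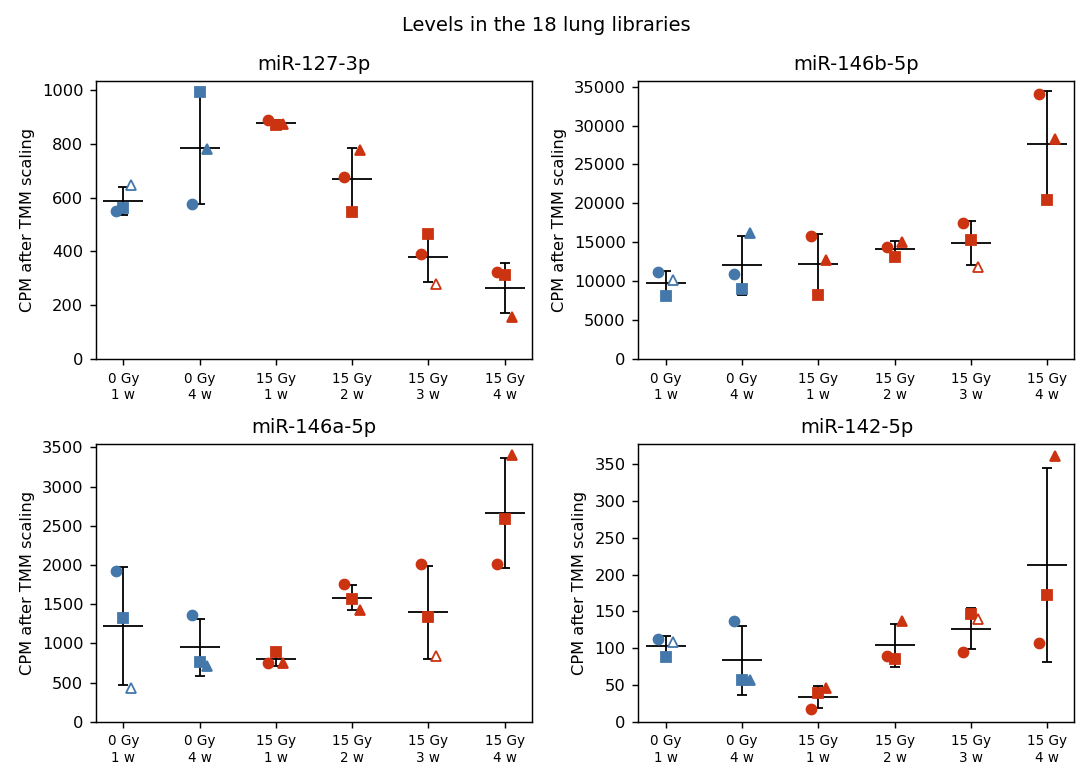
Levels in CPM after TMM scaling of miR-127-3p, miR-146b-5p, miR-146a-5p and miR-142-5p in the 18 lung libraries, blue for 0 Gy and red for 15 Gy, with group mean and SD in black. Open symbols are the libraries of 11621 and 8132 counts. The mean of miR-127-3p after 15 Gy goes from 877 CPM at 1 week to 263 CPM at 4 weeks, and miR-146b-5p has its highest mean, 27565 CPM, at 4 weeks.

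The change at 4 weeks was tested against the change at 1 week, each against its own controls. No row passed after adjustment in edgeR (0 of 499, with 20 higher and 48 lower at an unadjusted p under 0.05, 4.01% and 9.62%). DESeq2 called 13 of the 499 rows, and edgeR fitted to the 242 known miRNAs alone called 19 of these. miR-127-3p had the smallest p, with a log2 difference of −2.16 (SE 0.47, adjusted p 0.0913). miR-142-5p followed in the other direction with 2.93 (SE 0.74), from a log2 fold change of −1.59 at 1 week to 1.34 at 4 weeks. miR-423-5p had −1.76 (SE 0.44), miR-338-3p had 2.25 (SE 0.62) and miR-146a-5p had 2.13 (SE 0.66). For miR-423-5p and miR-338-3p the difference lay mostly at 1 week. miR-423-5p was at 1.47 (SE 0.31) at 1 week and −0.30 (SE 0.30) at 4 weeks. miR-338-3p was at −2.41 (SE 0.47) and −0.15 (SE 0.41). miR-146a-5p was at −0.64 (SE 0.46) and 1.49 (SE 0.47). In this set, miR-338-3p was at under 17 CPM throughout, and 1 control library of 1 week had 11621 counts only.

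The change in lung was also tested against the change in blood at 4 weeks, in a fit of both tissues with its own scaling and 576 rows. No row passed after adjustment in edgeR (0 of 576, with 14 higher and 38 lower at an unadjusted p under 0.05, 2.43% and 6.6%), and DESeq2 called 12 of the 576. miR-127-3p again had the smallest p, with a log2 difference of −6.30 (SE 1.62, adjusted p 0.341), but blood held almost none of it, with 0 CPM in all 3 libraries of 0 Gy and 3.73, 0 and 2.42 CPM at 15 Gy. The size of that difference therefore depends on how the fit treats 0 counts. miR-501-3p had 3.40 (SE 1.12), with 82.0, 28.6 and 45.5 CPM in blood at 0 Gy and 9.94, 27.8 and 38.8 CPM at 15 Gy. Its mirror entry miR-3560 had 3.44 (SE 1.26), miR-449c-5p −2.77 (SE 1.03) and miR-19a-3p −3.0 (SE 1.18). miR-449c-5p was also near 0 in blood, at 0, 1.06 and 1.08 CPM at 0 Gy and at 2.49, 10.8 and 2.42 CPM at 15 Gy. miR-19a-3p was at 7.93, 6.35 and 0 CPM and at 8.7, 40.3 and 4.84 CPM, so 1 library held most of it. miR-25-3p, a miRNA of red cells too, was at 7894, 11405 and 7029 CPM in blood at 0 Gy and at 10465, 12421 and 11083 CPM at 15 Gy, and its log2 difference between the tissues was −1.22 (SE 0.50).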

How the data were processed

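After trimming, the authors aligned reads with Bowtie to the mature miRNAs of miRBase version 19, and miRanalyzer predicted new ones. The submitters' notes name Trim Galore 0.2.5, Bowtie 1.1.1 and rn4, and the strand used for counting is not given in the sources used here. The deposited values are the authors' counts for 947 miRNAs and were not altered.

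The 18 lung libraries were fitted together in R 4.3.3 with edgeR 4.0.16 (filterByExpr, minimum count 10 and minimum total 15, TMM, quasi-likelihood test, Benjamini-Hochberg adjustment over 499 rows). The SE is the log2 fold change over the root of F, and intervals are 1.96 SE to each side. The fit of both tissues used 36 libraries. DESeq2 1.42.0 and other alternatives were run beside it. The test was checked on simulated counts. edgeR raised p by its Poisson bound for 30 known miRNAs, none of them from under 0.05.

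The members and lists were chosen with earlier results of these data known. Named are the 12 smallest p in each direction (unadjusted p under 0.05), every known miRNA called by any fit, the 10 highest levels, the list members, and the 5 smallest p of each difference between comparisons. miR-99a-5p, miR-30c-2-3p, miR-31a-5p, miR-191a-5p, miR-92b-3p, miR-363-3p and the blood values of miR-25-3p were chosen after their values were seen. Each replicate is read as its own pool of 3 rats, which the study's methods give. Otherwise p-values measure only technical spread. Mature sequences are from RefSeq (GRCr8).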

Additional observations from a re-analysis of the deposited data

Results flagged for a closer look

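The change of miR-127-3p at 4 weeks minus its change at 1 week in lung, −2.16 on the log2 scale (SE 0.47), was singled out because the groups moved in opposite directions. At 1 week all 3 libraries of 15 Gy (889, 871 and 872 CPM) lay above the 3 of 0 Gy (550, 561 and 645 CPM), with a log2 fold change of 0.59 (SE 0.33). At 4 weeks all 3 of 15 Gy (325, 311 and 155 CPM) lay below the 3 of 0 Gy (577, 991 and 780 CPM), with −1.57 (SE 0.33). The difference had an adjusted p of 0.0913 in edgeR over all rows and passed in edgeR over known miRNAs alone (−2.23) and in DESeq2 (−2.05). The control library of 645 CPM at 1 week had only 11621 counts in all.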

How the results depend on the processing

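The count of miRNAs called at 4 weeks, 0 in edgeR, was 11 in DESeq2, 1 with known miRNAs alone, 3 with known miRNAs alone on whole-table totals (added after seeing the data), 1 with only the 6 libraries compared and 48 without adjustment. The count of the difference from 1 week was 13 of 499 rows in DESeq2 and 19 of 242 with known miRNAs alone. That of the difference from blood was 12 of 576 rows in DESeq2. With each replicate left out in turn, all 3 counts stayed at 0 to 0. Signs turned for the following miRNAs, none of which passed the adjusted threshold in any fit. miR-10a-5p was at −0.79 under miR-191a-5p scaling, −0.03 with known miRNAs alone, and −0.02 without replicate 1 of 0 Gy. miR-26a-5p was at −0.60 under miR-191a-5p scaling, −0.05 against 0 Gy at 1 week and −0.13 without replicate 3 of 0 Gy and the libraries of low depth. Against 0 Gy at 1 week, miR-375-3p was at 0.09, miR-30c-2-3p at 0.65, let-7f-5p at 0.61, miR-143-3p and miR-30a-5p at 0.27 and miR-3596a at 0.41. let-7f-5p was at 0.06 against pooled controls, and let-7f-5p and miR-3596a were at 0.06 and 0.01 without replicate 3 of 0 Gy and the libraries of low depth. With each of the 6 libraries left out in turn, miR-10a-5p ran from −0.08 to 0.73, let-7f-5p from −1.04 to 0.22, miR-143-3p from −1.45 to 0.09, miR-30a-5p from −0.74 to 0.09 and miR-3596a from −0.96 to 0.17. The cause was not tested. Of the 27 known miRNAs with an unadjusted p under 0.05, 9 kept it without replicate 3 of 0 Gy, 10 without replicate 2 of 15 Gy, 9 without replicate 3 of 15 Gy and 17 to 25 without 1 of the others. Against 0 Gy at 1 week 8 of the 27 kept it, against pooled controls 10 and with library totals 13. The replicate numbers did not pair the samples (correlations of −0.036, −0.033 and 0.057 between the same numbers), and with a replicate block 0 were called and 20 of the 27 kept an unadjusted p under 0.05. Depth limits what the shallowest library shows, where 1 count was 3.97 CPM.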
